A study of Mus musculus with 8 samples.

Results

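*Atf3* and 9 further genes of the AP-1 and immediate early class (*Fos*, *Fosb*, *Fosl1*, *Fosl2*, *Jun*, *Junb*, *Jund*, *Egr1* and *Ier3*) were followed in the muscle of aged mice that lack *Grsf1*. The genes were chosen by name, and every non-control probe whose accession is a RefSeq transcript of these genes was taken. This gave 14 probes for all 10 genes, of the 56605 different probes and 22911 named genes on the array. RNA came from a quadriceps muscle of 3 Grsf1cKO and 3 WT mice, all male and 17 months old. Cy3 labeling and Agilent 1-color arrays were used, 8 in all, since the mice Grsf1cKO 1 and WT 1 each had a repeat array. The labels name the muscle as the vastus intermedius, while the methods of the study name the rectus femoris. Each value is the log2 of a probe's processed signal after quantile normalization, with the arrays of a mouse averaged. Each mouse is labeled as a separate animal, and p sets a difference against the spread between these mice. Precision is limited by the 3 mice per genotype.

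In the Grsf1cKO mice, exons IV and V of *Grsf1* lie between LoxP sites and are removed by Cre recombinase. The allele derives from Grsf1tm1a mice of the European Mouse Mutant Archive, whose reporter and selection cassettes were taken out with FLPo mice. Cre was expressed from *Myf5*, which is active in the muscle lineage, so that vessels, nerves, connective tissue and blood cells in the same sample are not expected to share the deletion. The labels describe the WT mice as wildtype controls and do not say whether they carried Cre or the floxed allele.

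AP-1 is a family of transcription factors that bind DNA as pairs of proteins held together by a leucine zipper. Proteins of the FOS family pair with those of the JUN family, JUN proteins can also pair with each other, and ATF3 can pair with itself or with JUN proteins and often acts as a repressor. *Fos*, *Jun*, *Egr1* and their relatives are immediate early genes, transcribed within minutes of a stimulus through MAP kinases without new protein synthesis, and in muscle they are known to respond to contraction, injury and stress.

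*Grsf1* served as a check of the labels. In Grsf1cKO 1, 2 and 3 its log2 signal was 12.15, 12.02 and 12.08, while WT 1, 2 and 3 had 14.30, 14.25 and 14.27. All 3 Grsf1cKO mice lay far below all 3 WT mice, as the labels state. The difference of -2.19 ± 0.08 (SE, limma adjusted p = 0.00328) corresponds to a 4.57-fold lower signal. The array files do not give the position of the probe relative to the floxed exons. As a check of the tissue, all 10 markers of muscle fibers were well above background in all 6 mice, and *Tnnt3*, a fast troponin, was the brightest of them. On 7 of the 8 arrays *Tnnt3* took the top value that quantile normalization assigns, so that its level there cannot differ. The probe of *Myf5*, the gene that drives Cre, was not well above background in any mouse.

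Promoter sequence of the members is described because the question is whether *Jun*, *Fos* and *Egr1* move with *Atf3*. Promoters of 1 chromosome were left out, both for the members and for the shares of all windows. RefSeq starts (GRCm38.p6) with 250 bases of upstream sequence were used for 8 of the 10 members, and not for *Fosl1* and *Egr1*. These windows were searched on both strands for the AP-1 site TGANTCA, for TGANNTCA, which takes in the cyclic AMP response element, for TGACGT, its core, and for TATAAA, as in a TATA box. A full cyclic AMP response element would match both TGANNTCA and TGACGT. The AP-1 site TGANTCA was in 0 of the 8 members and in 6.73% of 32526 different promoter windows of this length, and TGANNTCA was in 2 members (*Jun* and *Jund*) and in 11.9% of windows. TGACGT was in 2 members (*Atf3* and *Fos*) and in 6.51% of windows, and TATAAA in 1 member (*Fos*) and in 12.3%. The windows of *Atf3* (chr1:191183334-191183583, minus strand), *Jun* (chr4:95052223-95052472, minus strand) and *Fos* (chr12:85473640-85473889, plus strand) are shown from 5′ to 3′, with every match in capitals, since these genes carry the comparison. They end at the base before the RefSeq start.
Atf3: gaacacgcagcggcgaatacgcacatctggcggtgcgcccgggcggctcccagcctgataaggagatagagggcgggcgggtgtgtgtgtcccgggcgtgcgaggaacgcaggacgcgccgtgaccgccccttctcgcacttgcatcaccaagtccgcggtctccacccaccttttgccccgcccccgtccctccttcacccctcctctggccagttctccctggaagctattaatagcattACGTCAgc
Jun: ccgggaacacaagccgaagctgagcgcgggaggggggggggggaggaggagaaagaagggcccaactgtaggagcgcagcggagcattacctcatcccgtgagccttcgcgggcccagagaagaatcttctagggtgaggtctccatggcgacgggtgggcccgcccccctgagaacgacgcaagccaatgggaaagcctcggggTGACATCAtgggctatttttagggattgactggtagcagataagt
Fos: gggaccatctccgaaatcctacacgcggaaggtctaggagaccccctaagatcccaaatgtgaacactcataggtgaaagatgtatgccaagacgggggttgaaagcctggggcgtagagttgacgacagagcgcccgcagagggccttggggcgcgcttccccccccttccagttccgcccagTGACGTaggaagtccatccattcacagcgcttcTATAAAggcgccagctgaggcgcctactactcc
In *Atf3* the match lies on the opposite strand, from base -8 to base -3 relative to the start. In *Jun* it runs from -45 to -38, and in *Fos* the core of the response element runs from -66 to -61 and the TATAAA from -33 to -28. A match of letters describes the sequence and does not show that a factor binds there.

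Of the 14 member probes, 13 were well above background in at least 3 mice and were tested, and 12 were well above background in all 6. To count as changed in limma, a probe had to pass 3 limits: fold change (1.5), unadjusted p (0.01) and adjusted p by Benjamini-Hochberg (0.2). By this rule 3 of 38888 probes tested (0.00771%) differed between the genotypes, and 0 of the 13 member probes were among them. Among the main probes of the members (for each gene its brightest probe), 1 of 10 had an unadjusted p under 0.05 and was higher, and 0 of 10 were lower, against 1.15% and 2.29% of 17020 main probes of named genes. Groups that did not overlap were found for 2 of the 10 members (*Atf3* and *Jun*) in the higher direction, against 3.13% of main probes, and for 1 (*Fosb*) in the lower direction, against 6.12%. The median difference of the 10 members was -0.03, beside -0.02 for all named genes tested. The members therefore did not move 1 way, with 5 main probes above 0 and 5 below.

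*Atf3* encodes a stress-induced member of the ATF family. In Grsf1cKO 1, 2 and 3 its log2 signal was 11.47, 11.11 and 11.57, while WT 1, 2 and 3 had 10.67, 10.75 and 10.02. Every Grsf1cKO mouse lay above every WT mouse, and WT 3 was the lowest of the 6. The gap between the lowest Grsf1cKO and the highest WT mouse was 0.36, smaller than the range within either genotype (0.46 and 0.73). The means were 11.38 ± 0.24 and 10.48 ± 0.40 (SD, n = 3 each), a difference of 0.91 ± 0.23 (SE) or 1.87-fold, with a 95% confidence interval from 0.33 to 1.48. The fold change and the unadjusted limma p (0.00816) met their limits, but the adjusted p was 0.996, so that *Atf3* was not among the changed probes. The exact permutation test over the 6 mice gave a 2-sided p of 0.1, the smallest that 3 mice against 3 can give. With the test of z-scores and the criteria named in the methods in place of limma, *Atf3* was called (adjusted p = 0.03405), among 123 probes. That test also gave *Jun* and *Fosb* a low adjusted p (0.00239 and 0.0141), but its other criteria did not call them. *Atf3* was chosen in the study on these same mice, so that its difference here is a description. Apart from the arrays, the paper measured *Atf3* mRNA by RT-qPCR and reported it as significantly changed, and as increased in the knockout. The RT-qPCR values were not part of the array data and were not examined here. In whole muscle, more cells of a type that expresses a gene and more RNA per cell cannot be told apart.

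Among the JUN family, which supplies the partners of both FOS proteins and ATF3, *Jun* had a log2 signal of 14.74, 14.90 and 14.94 in the Grsf1cKO mice and 14.68, 14.71 and 14.67 in the WT mice. The Grsf1cKO mice all lay above the WT mice, but by a gap of only 0.03. The difference was 0.17 ± 0.09 (SE), or 1.13-fold, with a limma adjusted p of 0.996. The genotypes overlapped for *Jun* when arrays were scaled to their 75th percentile in place of quantile normalization. *Junb*, whose protein pairs with FOS and can restrain JUN, had 12.59, 12.46 and 12.97 in the Grsf1cKO mice and 12.57, 12.59 and 12.36 in the WT mice. Grsf1cKO 3 stood above the other 5 mice for *Junb*, and the genotypes overlapped (difference 0.17 ± 0.16). Its dimmer probe gave a difference of 0.34 ± 0.20, also with overlap. *Jund*, the JUN gene known to be expressed at a steady level in resting cells, differed by 0.03 ± 0.13 in its main probe and by -0.10 ± 0.11 in the dimmer one, so that its probes did not share a sign.

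In the FOS family the signs were mixed. *Fos*, the classic immediate early gene, had a log2 signal of 9.29, 8.80 and 10.18 in the Grsf1cKO mice and 11.04, 10.03 and 9.21 in the WT mice. WT 1 was the highest and Grsf1cKO 2 the lowest, and the other 4 mice overlapped. Both arrays of WT 1 gave the high value (11.02 and 11.07). Grsf1cKO mice averaged 9.42 ± 0.70, and WT mice 10.10 ± 0.92 (SD, n = 3 each), a difference of -0.67 ± 0.55 (SE) with a 95% confidence interval from -2.01 to 0.67. The difference was -0.20 without WT 1 and -1.11 without WT 3.

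*Fosb*, a FOS relative that is also induced early, had 7.77, 7.72 and 7.83 in the Grsf1cKO mice and 7.98, 8.02 and 7.89 in the WT mice. The Grsf1cKO mice all lay below the WT mice, with a gap of 0.06, and the difference was -0.19 ± 0.09 (SE, limma adjusted p = 0.996). The arrays of WT 1 differed by more than that gap (8.15 and 7.80), and the genotypes overlapped for *Fosb* when the repeat arrays replaced the others, on slide 2 alone, with 75th percentile scaling and with the deposited z-scores. The dimmer *Fosb* probe was not well above background in any mouse. *Fosl2* (FRA-2) had a difference of -0.17 ± 0.16 in its main probe and 0.40 ± 0.40 in the dimmer one, for which the arrays of Grsf1cKO 1 read 5.04 and 7.52. Leaving out single mice, the main probe differed by -0.28 (without WT 3) to -0.04 (without WT 1). *Fosl1* (FRA-1) was dim and well above background in only 3 mice, 2 Grsf1cKO and 1 WT, with values from 2.58 to 5.19 and a difference of 0.64 ± 0.62. The *Fosl1* difference was 0.05 without WT 3, 0.06 with normexp background correction and 2.01 with slide as a block and first arrays, and limma called it in none of these.

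*Egr1* encodes a zinc finger factor induced through serum response elements, as *Fos* is. Its log2 signal was 9.83, 9.32 and 10.21 in the Grsf1cKO mice and 10.86, 10.25 and 9.73 in the WT mice. The mice stood almost as they did for *Fos*, with WT 1 highest, Grsf1cKO 2 lowest and overlapping genotypes. The difference was -0.50 ± 0.35 (SE), with a 95% confidence interval from -1.35 to 0.35. It was -0.21 without WT 1 and -0.77 without WT 3, where the genotypes no longer overlapped. Without WT 3, 13.2% of main probes were also lower without overlap, against 6.12% with all mice. *Ier3*, an early gene linked to cell survival, was nearly flat, between 9.88 and 10.16, with a difference of -0.10 ± 0.10, or -0.02 without Grsf1cKO 2. When WT 1 was left out, *Ier3* was lower without overlap, as were 10.8% of main probes.

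**Figure D1:**
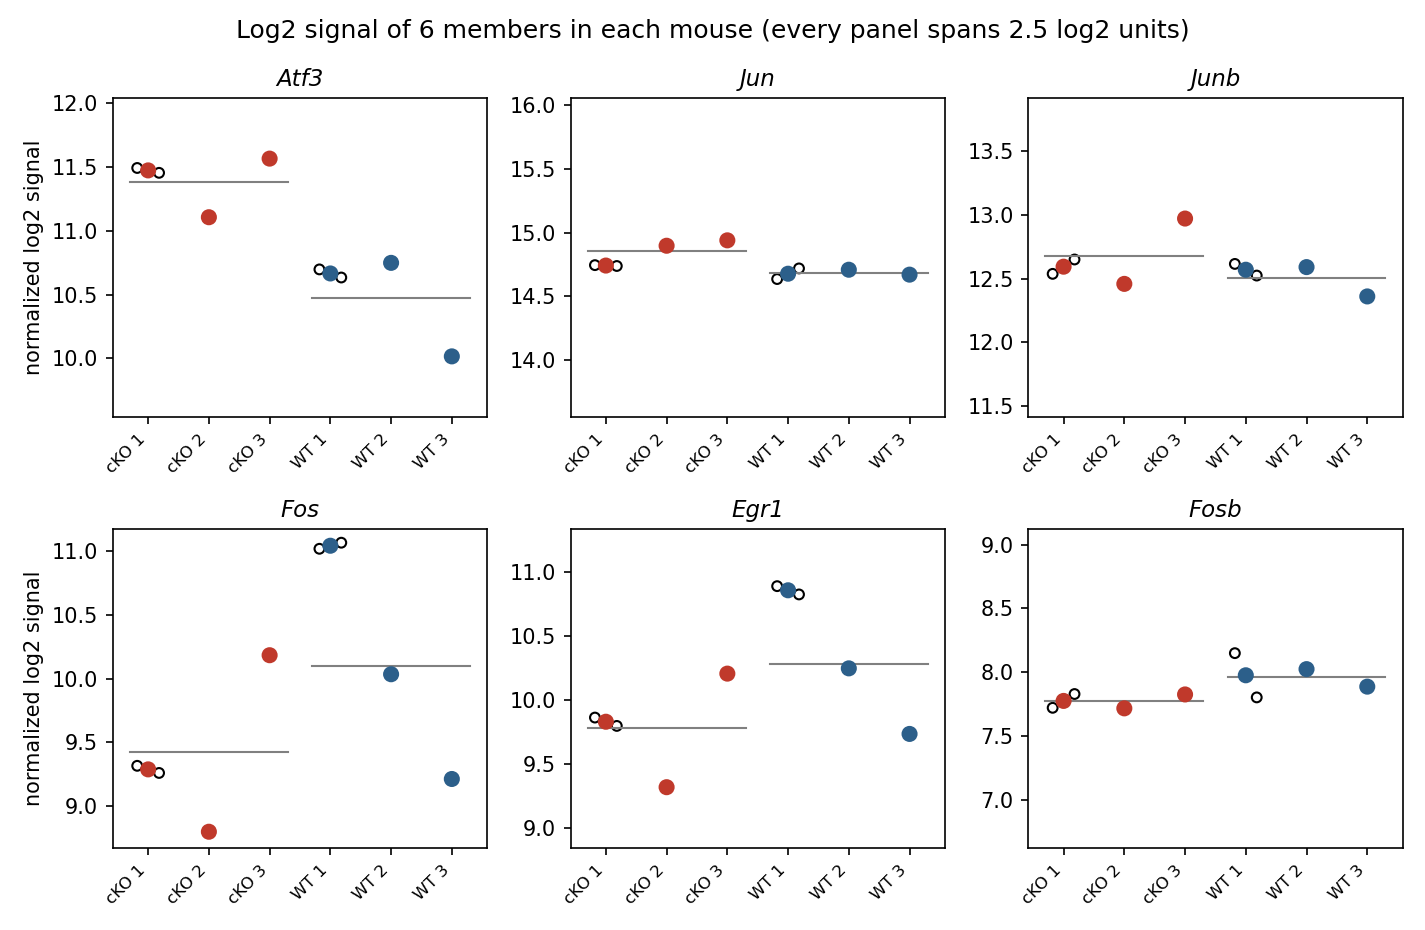
Normalized log2 signal of 6 members in each mouse (filled points: red, Grsf1cKO; blue, WT; open points: the single arrays of the mice with a repeat; gray lines: genotype means, n = 3 each). *Atf3* lies between 11.11 and 11.57 in Grsf1cKO and between 10.02 and 10.75 in WT, while *Fos* and *Egr1* share a high value in WT 1 and a low value in Grsf1cKO 2.

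**Figure D2:**
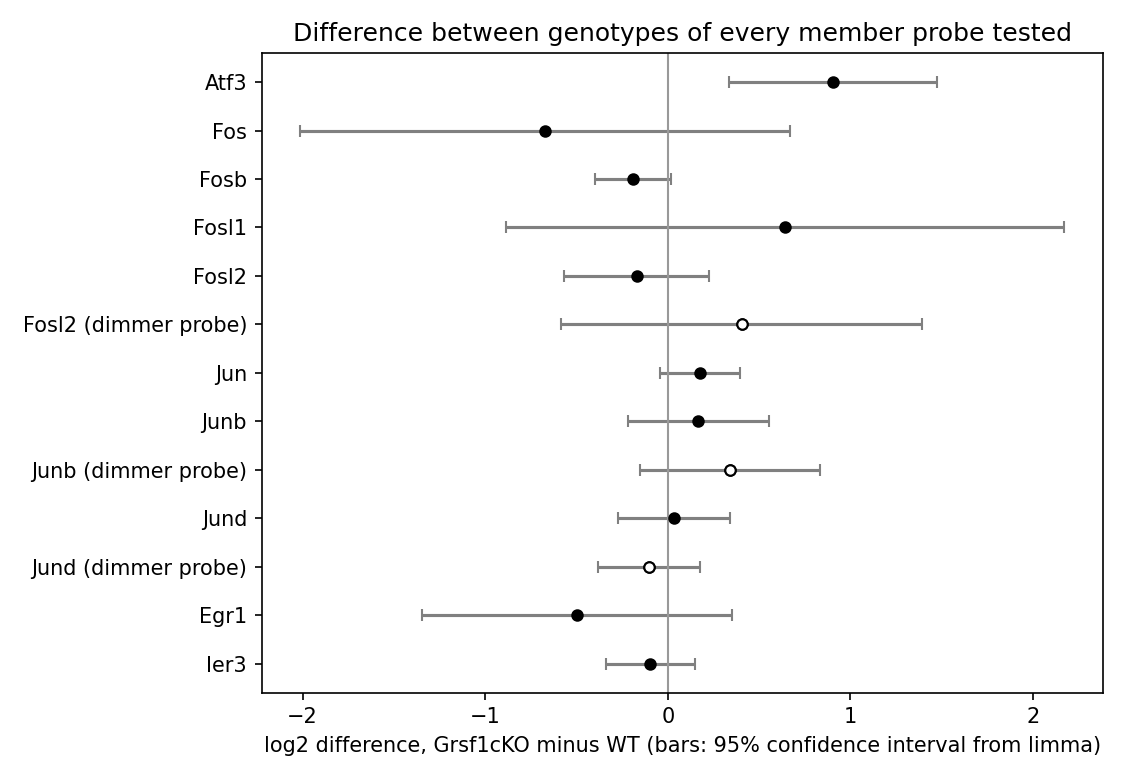
Log2 difference between Grsf1cKO and WT for the 13 member probes tested, with 95% confidence intervals from limma (filled, main probe; open, dimmer probe of the same gene). The interval lies above 0 for *Atf3* (0.33 to 1.48) and includes 0 for the other 12 probes, and no probe passed the adjusted threshold.

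The slide was examined as a batch. Slide 1 held WT 2 and the first array of WT 1, and slide 2 held the other 6 arrays. On slide 2 alone, where WT 1 is represented by its repeat array, *Atf3* was 1.06 higher in the 3 Grsf1cKO mice than in the 2 WT mice, and *Jun* was 0.16 higher, while *Fos* was lower (-0.72) and so was *Egr1* (-0.50). With slide as a block and only the first array of each mouse, WT 3 is the single WT mouse on slide 2 and alone sets the difference. The *Atf3* difference was then 1.37 (limma adjusted p = 0.575), while that of *Fos* turned to 0.22 and that of *Egr1* to 0.06. Slide 1 held mice of 1 genotype only and gives no difference. The repeat array of Grsf1cKO 1 stood apart from the other arrays, with 88.9% of spots well above background against 66.3% to 73.1%. Without it, *Atf3* differed by 0.91, *Jun* by 0.17, *Fos* by -0.66 and *Egr1* by -0.49, and 3 probes were called, an alternative chosen after seeing the data.

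Whether the other members move with *Atf3* was asked across the 6 mice. Over all 6, *Fos* did not follow *Atf3*, with a Pearson r of -0.02 (exact permutation p = 0.960) and a Spearman rho of 0.09 (exact permutation p = 0.919). *Egr1* did not follow it either (r = -0.07, exact permutation p = 0.924; rho = -0.09, exact permutation p = 0.919). *Jun* came closest in rank, with a rho of 0.94 (exact permutation p = 0.0167, 0.150 after Benjamini-Hochberg adjustment over the 9 members) and an r of 0.72 (exact permutation p = 0.126, adjusted 0.379). Both mice that depart from a straight order in *Jun* are Grsf1cKO 1 and 2, whose *Atf3* and *Jun* values are ranked in opposite order. Without WT 3 and Grsf1cKO 3, the mice farthest from the *Atf3* median, r was 0.43 for *Jun*, -0.76 for *Fos* and -0.69 for *Egr1*. Since removing these mice narrows the range of *Atf3*, the lower r for *Jun* decides nothing. For *Jun*, r was 0.67 without WT 3 alone and 0.56 without Grsf1cKO 3 alone. No member had an adjusted p under 0.05.

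*Junb* gave an r of 0.73 (exact permutation p = 0.113, adjusted 0.379) and a rho of 0.83 (exact permutation p = 0.0583, adjusted 0.263), and its r was -0.08 without the same mice. *Fosl1* gave an r of 0.71 (exact permutation p = 0.115) and a rho of 0.60 (exact permutation p = 0.242), but it was not well above background in 3 mice. Without WT 3 and Grsf1cKO 3 its r was -0.50, and without WT 3 alone it was 0.22. Of the remaining members, *Jund* had an r of 0.25, *Fosl2* of -0.20, *Ier3* of -0.26 and *Fosb* of -0.52 (exact permutation p = 0.625, 0.719, 0.626 and 0.296), with rho of 0.31, -0.26, -0.26 and -0.54 (exact permutation p = 0.564, 0.658, 0.658 and 0.297). Their adjusted values were 0.666 or higher. Over the 5 mice of slide 2 alone, an alternative chosen after seeing the data, r with *Atf3* was -0.02 for *Fos*, -0.06 for *Egr1* and 0.72 for *Jun* (exact permutation p = 0.958, 0.958 and 0.175). Slide 1 holds 2 mice, too few for a correlation.

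The pooled values combine differences between the genotypes with differences among mice of the same genotype, and for several members these ran in opposite directions. Among the Grsf1cKO mice, *Atf3*, *Fos*, *Egr1*, *Fosb* and *Junb* were all highest in Grsf1cKO 3, intermediate in Grsf1cKO 1 and lowest in Grsf1cKO 2. Among the WT mice, the same 5 genes were all lowest in WT 3, with WT 2 highest for *Atf3*, *Fosb* and *Junb* and WT 1 highest for *Fos* and *Egr1*. For *Fosb* and *Junb* the order depended on averaging the arrays of a mouse. The *Fosb* arrays of WT 1 (8.15 and 7.80) lay above WT 2 (8.02) and below WT 3 (7.89). Its value on the repeat array of Grsf1cKO 1 (7.829) was above Grsf1cKO 3 (7.825). For *Junb* the first array of WT 1 (12.61) was above WT 2 (12.59). As deviations from the genotype means, r with *Atf3* was 0.80 for *Fos*, 0.83 for *Egr1*, 0.96 for *Fosb*, 0.76 for *Junb* and 0.80 for *Fosl1*, but 0.41 for *Ier3*, 0.37 for *Fosl2*, 0.28 for *Jund* and 0.05 for *Jun*. These values describe 6 deviations that sum to 0 in each genotype, and no p is given for them. Within the Grsf1cKO mice *Fos* and *Egr1* had the order of *Atf3*, and within the WT mice they shared only its lowest mouse. Between the genotypes the mean of *Atf3* was higher and the means of *Fos* and *Egr1* were lower in Grsf1cKO. *Jun* showed the reverse arrangement, with a shared direction between the genotypes and an r near 0 within them.

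**Figure D3:**
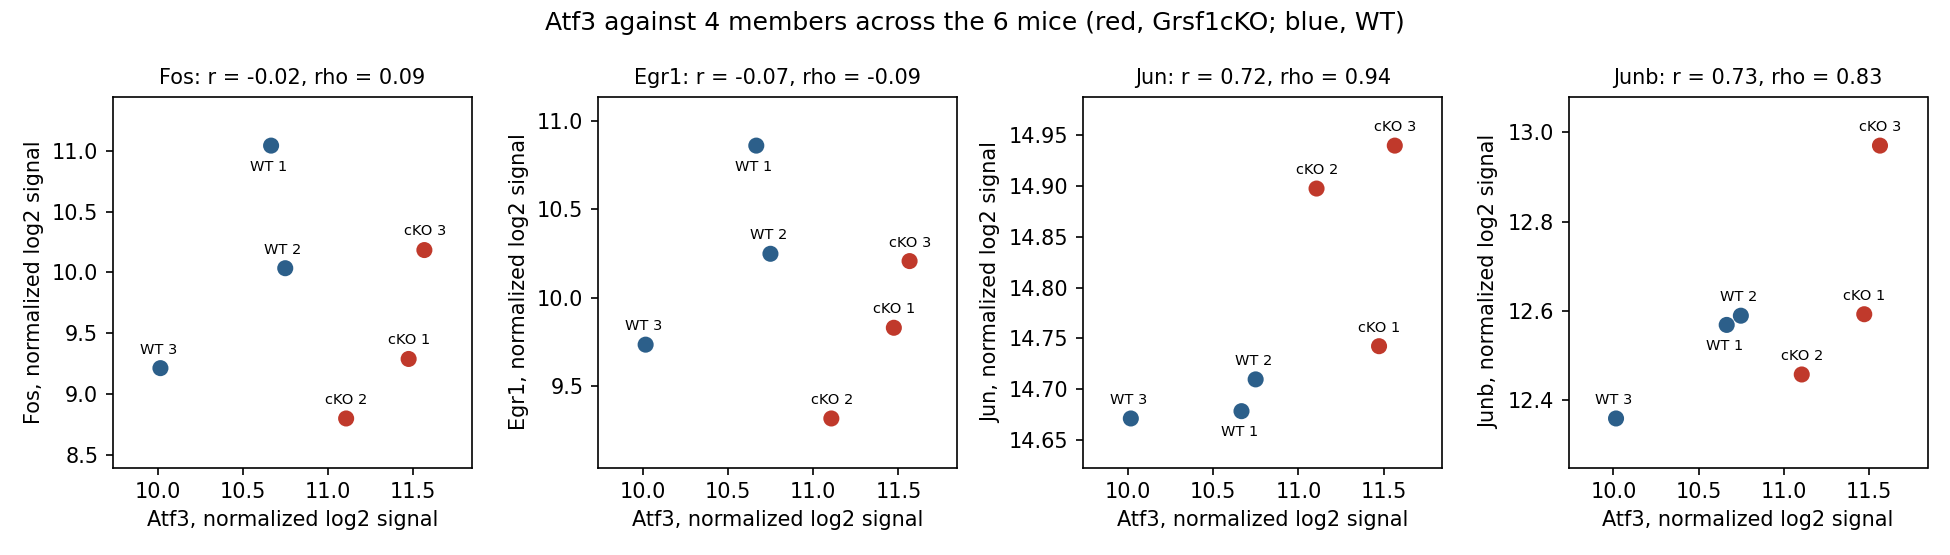
Normalized log2 signal of *Fos*, *Egr1*, *Jun* and *Junb* against that of *Atf3*, 1 point per mouse (red, Grsf1cKO; blue, WT), with Pearson r and Spearman rho over the 6 mice. For *Fos* and *Egr1* the WT mice lie to the left of the Grsf1cKO mice and reach higher, and the pooled r is -0.02 and -0.07, while for *Jun* the Grsf1cKO mice lie up and to the right of the WT mice.

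*Fos* and *Egr1* moved with each other more closely than either did with *Atf3*. Over the 6 mice their r was 0.99 (exact permutation p = 0.0028, adjusted 0.125 over the 45 pairs of members) and their rho 0.94 (exact permutation p = 0.0167, adjusted 0.375), and r was 0.98 without WT 1 and Grsf1cKO 2, the mice farthest from the *Fos* median. The pair was picked after the values were seen, and it did not pass the adjustment. *Egr1* was also the gene most like *Fos* among 3690 main probes that were well above background on all arrays and had an SD over the mice of at least 0.25.

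By the same measure, the 10 genes most like *Atf3* were *Cd300ld3* (r = 0.98), *Bin2* (0.97), *Agrp* (0.96), *Scube2* (0.94), *2410018L13Rik* (0.93), *Pik3cg* (0.93), *Gsdma* (0.93), *G6pd2* (0.93), *Cx3cl1* (0.92) and *Ampd3* (0.92). Of the other members only *Fos* and *Egr1* met the limits on detection and SD and could have been listed. In all, 14 of the 3690 genes reached an r of 0.9. *Bin2*, *Pik3cg* and *Cd300ld3* are known from blood cells, *Cx3cl1* encodes the chemokine fractalkine, and *Ampd3* an AMP deaminase. *Bin2* had a log2 signal of 6.23, 5.86 and 6.40 in the Grsf1cKO mice and 5.58, 5.87 and 4.93 in the WT mice, with WT 2 inside the Grsf1cKO range. *Ampd3* had 12.54, 12.16 and 12.24 in the Grsf1cKO mice and 12.03, 11.89 and 11.61 in the WT mice, with no overlap. With 6 mice such values of r describe likeness only.

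Other immediate early genes were taken from a list of 37, of which 35 were tested and *Egr4* and *Dusp5* were not well above background in any mouse. By limma 0 of the 35 changed, 2 had an unadjusted p under 0.05 and were higher, and 0 were lower, against 1.15% and 2.29% of main probes. Their genotypes did not overlap for 3 genes in the higher and 2 in the lower direction, against 3.13% and 6.12%, and the median difference was -0.01. By the naming rule the higher genes were *Gadd45a*, a growth arrest gene (difference 0.62 ± 0.24), *Csrnp1*, a nuclear factor (0.33 ± 0.13), and *Myc* (0.29 ± 0.14). The lower ones were *Zfp36l1*, which promotes mRNA decay (-0.55 ± 0.23), and *Nfkbiz*, a regulator of NF-kappaB target genes (-0.13 ± 0.08). *Gadd45a* had a log2 signal of 12.67, 11.77 and 11.98 in the Grsf1cKO mice and 11.51, 11.63 and 11.44 in the WT mice, with Grsf1cKO 1 well above the others. Single WT mice also carried part of the difference for *Zfp36l1* (WT 2 at 14.58, against 13.71 and 13.89), *Csrnp1* (WT 3 at 9.80, against 10.12 and 10.25) and *Myc* (WT 1 at 8.34, against 8.61 and 8.80). WT 1, highest for *Fos* and *Egr1*, was also the highest mouse for 10 of the 35 genes, as was Grsf1cKO 3 for 10 others. Those of WT 1 were *Egr3*, *Nr4a1*, *Ier2*, *Dusp1*, *Dusp2*, *Dusp6*, *Klf2*, *Klf4*, *Klf6* and *Nfkbiz*, a tally made after the values were seen. Of these the orphan nuclear receptor *Nr4a1* was the brightest gene of the list, at 15.71, 15.86 and 15.48 in the Grsf1cKO mice and 16.54, 16.11 and 15.68 in the WT mice. *Csrnp1* had an r of 0.95 with *Atf3*, against a median of -0.03 for the list and -0.08 for all named genes tested. *Csrnp1*, for this likeness, and *Nr4a1* were singled out after their values were seen.

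**Figure D4:**
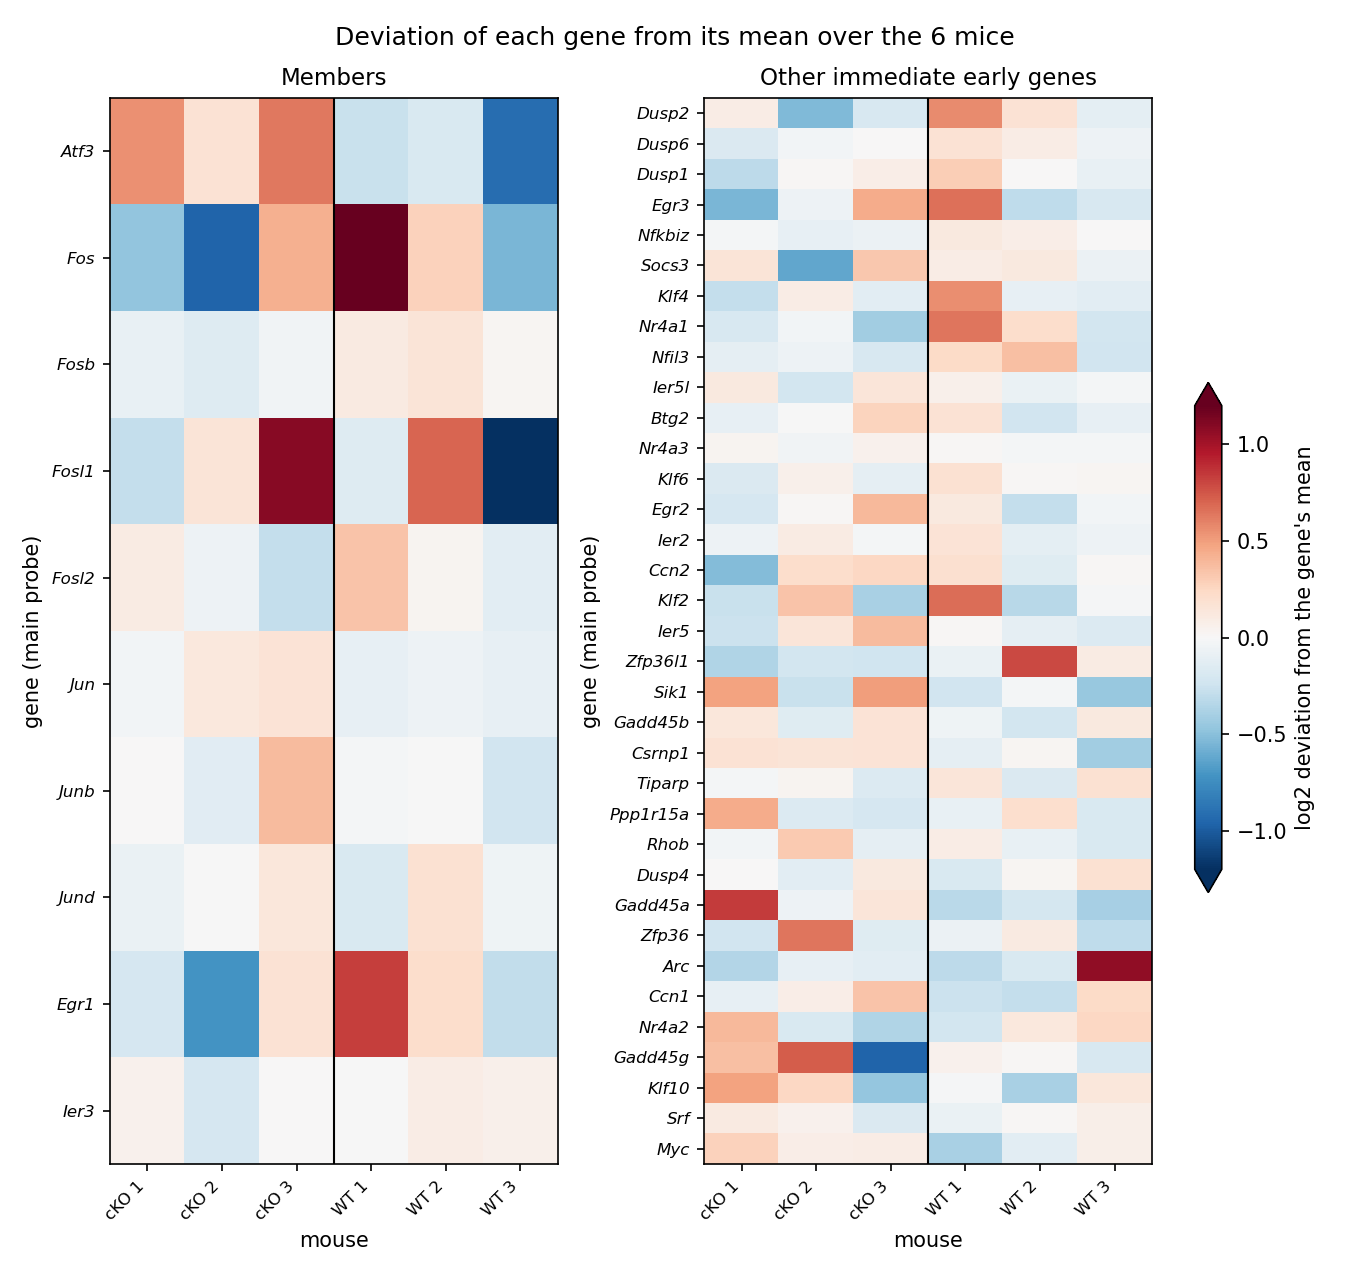
Log2 deviation of each gene from its own mean over the 6 mice, for the 10 members and for 35 other immediate early genes ordered by their r with *Fos* (red, above the mean; blue, below). *Atf3* is above its mean in the 3 Grsf1cKO mice and below it in the 3 WT mice, and WT 1 holds the highest values of *Fos*, *Egr1* and *Nr4a1*.

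Of 20 bZIP genes whose products can pair with or compete with AP-1 proteins, 19 were on the array under a matching accession and were tested. By limma 0 changed, 0 had an unadjusted p under 0.05, and the median difference was -0.02. *Maff*, a small MAF protein, and *Creb1*, the cyclic AMP response element binding protein, had genotypes that did not overlap, both lower in Grsf1cKO (-0.35 ± 0.14 and -0.18 ± 0.11), where 6.12% of main probes did the same. *Atf4*, the main factor of the integrated stress response and known to induce *Atf3*, was the brightest gene of the list and differed by -0.21 ± 0.14, and it is named after its values were seen. Of the 17 kinases and factors upstream of the early genes, 0 changed and 0 had groups that did not overlap, and all differences lay between -0.18 and 0.11 with a median of -0.04. Of the 10 heat shock genes, 0 changed and 0 had groups that did not overlap, with a median of -0.04. Of all main probes, 3.13% were higher and 6.12% lower without overlap. *Hspa1a*, the inducible HSP70, was also picked after its values were seen. It had 11.77, 11.86 and 12.80 in the Grsf1cKO mice and 12.09, 12.38 and 11.40 in the WT mice. The median r of the heat shock genes was 0.68 with *Fos* and 0.27 with *Atf3*, beside 0.13 and -0.08 for all named genes tested.

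Among 15 known targets of AP-1 or ATF3, 14 were tested, and *Mmp13* was well above background in only 2 mice. By limma 0 changed and 0 had groups that did not overlap, while 1 had an unadjusted p under 0.05 and was higher, beside 1.15% of main probes with such a p and 3.13% (higher) and 6.12% (lower) without overlap. Of the 14 targets 13 had a difference above 0, beside 7239 of 17030 named genes tested. The median of the targets was 0.21, beside -0.02 for all named genes tested. Their mean deviation from the WT mean was 0.12, 0.01 and 0.47 for the Grsf1cKO mice and 0.03, 0.11 and -0.15 for the WT mice, so that the shift came mainly from Grsf1cKO 3 and was within the WT range in Grsf1cKO 2. In Grsf1cKO 3 the markers of macrophages and leukocytes (0.92) and of fibroblasts (0.41) were also high, and their part in the shift was not tested.

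Markers of other cell types were followed beside the members. The 7 markers of macrophages and leukocytes were all well above background in all mice, and their mean deviation from the WT mean was -0.10, -0.06 and 0.92 for the Grsf1cKO mice and -0.05, 0.19 and -0.15 for the WT mice. On this mean Grsf1cKO 3 stood apart. Its *Cd68* signal was 13.30, against 11.57 to 11.96 in the other mice, and its *Lyz2* signal was 11.33, against 9.52 to 10.28, both genes picked after their values were seen. *Itgam*, the brightest marker of the list, was not raised in that mouse (14.94, against 15.26 in WT 2 and 15.05 in WT 3), and its difference was -0.13. The summed normalized signal of the list was 49810, 50590 and 68620 in the Grsf1cKO mice and 50910, 60910 and 51620 in the WT mice. Differences were above 0 for 6 of the 7, beside 7239 of 17030 named genes tested. By limma 0 changed, beside 0.00771% of all probes tested. Groups did not overlap for 0, beside 3.13% (higher) and 6.12% (lower) of main probes. With only 7 markers these counts of 0 say little.

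Grsf1cKO 3 was also the mouse with the highest *Atf3*, *Jun*, *Junb* and *Fosl1* signal. Without Grsf1cKO 3 the *Atf3* difference was 0.81 (limma adjusted p = 0.844). For *Junb* the difference was 0.02 without Grsf1cKO 3, but 0.28 and without overlap when Grsf1cKO 2 was left out. With Grsf1cKO 2 left out, 6.49% of main probes were also higher without overlap, against 3.13% with all mice. Of the 3 neutrophil markers tested, *S100a9* was the brightest and was also high in Grsf1cKO 3 (10.04) and WT 2 (9.22), while *Cxcr2* was well above background in only 2 mice. The summed signal of these 3 markers was 307.1, 275.8 and 1344 in the Grsf1cKO mice and 319.7, 867.7 and 590.6 in the WT mice. All 5 fibroblast markers had a difference above 0 (median 0.21), beside 7239 of 17030 named genes tested, and *Dcn* was the brightest. Their mean deviation from the WT mean was 0.05, 0.08 and 0.41 for the Grsf1cKO mice and 0.22, -0.09 and -0.13 for the WT mice, highest in Grsf1cKO 3. Their summed signal was 303700, 293000 and 318600 in the Grsf1cKO mice and 315400, 270600 and 275200 in the WT mice. The part of these cells in the values of the members was not tested.

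For the other lists 0 genes changed. The 10 muscle fiber markers had a median difference of 0.01, with *Myh2*, a fast myosin, above (0.19 ± 0.10) and *Myh4*, another fast myosin, below (-0.05 ± 0.08) in groups that did not overlap, which 3.13% and 6.12% of all main probes also showed. The medians were -0.06 for 5 endothelial markers (brightest *Cdh5*), -0.09 for 3 of smooth muscle (*Acta2*), 0.05 for 5 of Schwann cells (*Pmp22*), -0.07 for 4 of adipocytes (*Cidec*), -0.28 for the 3 of neutrophils and 0.10 for 2 of satellite cells (*Cdh15*). The mean deviation of the adipocyte markers from the WT mean was -0.24, 0.35 and -0.33 in the Grsf1cKO mice. In the WT mice it was 0.40, 0.27 and -0.67. That of the satellite cell markers was 0.145, 0.145 and 0.02 in the Grsf1cKO mice and -0.32, 0.11 and 0.22 in the WT mice. WT 3 was lowest and Grsf1cKO 3 highest for *Atf3*, while WT 1 was highest and Grsf1cKO 2 lowest for *Fos* and *Egr1*. The part of these cells was not tested. No gene of these lists other than *Myh2* and *Myh4* had groups that did not overlap.

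**Figure D5:**
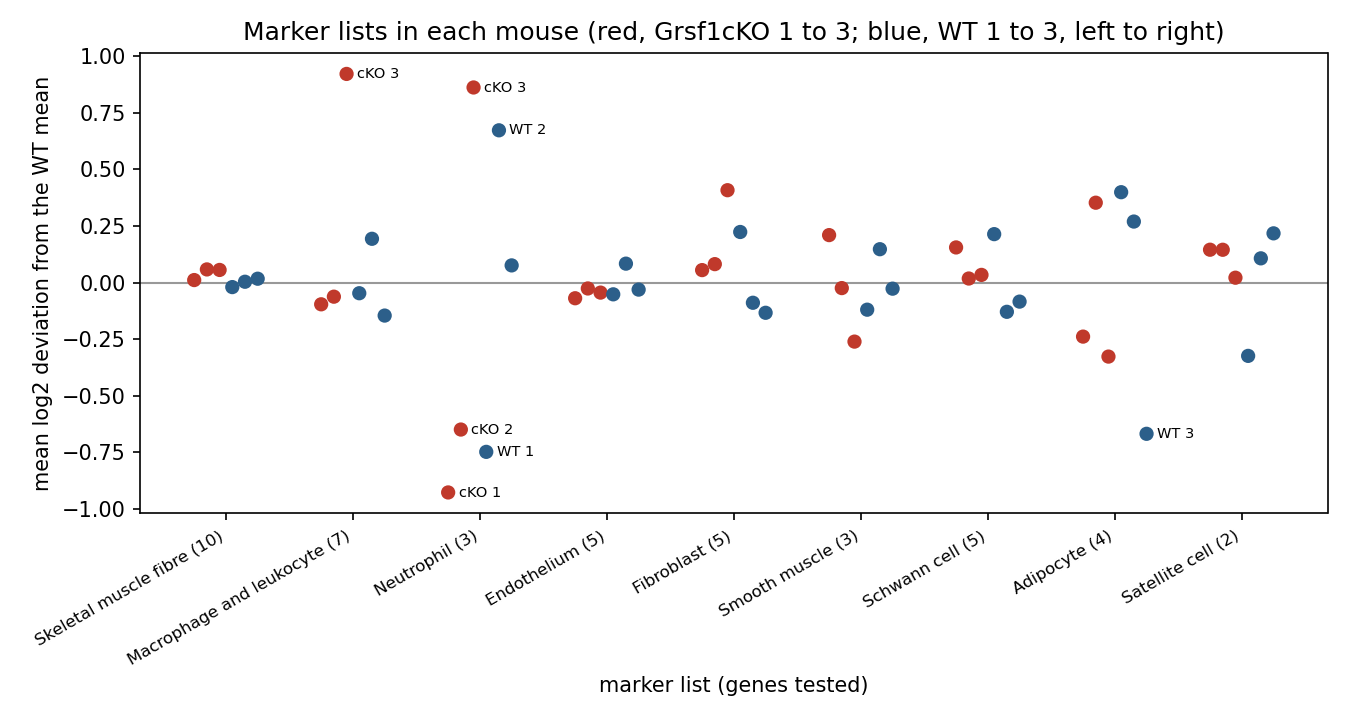
Mean log2 deviation of each marker list from the WT mean, 1 point per mouse (red, Grsf1cKO; blue, WT), with the number of genes tested in brackets. Grsf1cKO 3 stands at 0.92 for macrophage and leukocyte markers, where the other 5 mice lie between -0.15 and 0.19.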

How the data were processed

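Muscle RNA of 3 Grsf1cKO and 3 WT mice was measured on 8 arrays. The authors deposited, per array, the intensity of each spot from Feature Extraction 12.0.3.1, with no normalization between arrays, and a score for each spot, the z-score of its log2 processed signal within the array. Here control spots were left out and outlier spots set to missing, and the processed signal was quantile normalized, averaged per probe and then per mouse, and fitted by genotype alone (R 4.3.3, limma 3.58.1). Tested probes were well above background in 3 or more mice and had values in 2 or more per genotype. Of 56605 probes, 32994 were named through RefSeq accessions (GRCm38.p6). The main probe of a gene has the highest mean signal. Shares of main probes cover the 17020 with a value in every mouse. Correlations used exact permutation of the 720 pairings.

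The members and gene lists were chosen with earlier results of these data known. Genes named from a list are up to 3 with the largest difference in each direction among those whose genotypes do not overlap, the brightest marker genes, and the 10 most like *Atf3*. Other genes (*Nr4a1*, *Csrnp1* as like *Atf3*, *Atf4*, *Hspa1a*, *Cd68*, *Lyz2*) were picked after their values were seen. The fit was tested on simulated data, and no outcome of that test is given or used here. Alternatives covered scaling, background correction, z-scores, filter, repeat arrays, slide, test, replicate block and single mice.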

Additional observations from a re-analysis of the deposited data

How the results depend on the processing

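By the count of changed probes, 3 in the main setting, the methods' z-test called 123 (53 higher, 70 lower), slide as a block with first arrays only called 5 of 39243 (first arrays without the block called 3), and the replicate block called 1 of 38888. Deviations of same-numbered mice correlated by 0.232, 0.097 and 0.104. With no differently numbered mice set beside them, these values cannot tell whether the replicate numbers pair the mice. *Grsf1* was not called with the replicate block. With the replicate block the *Atf3* difference stayed 0.91 (limma adjusted p = 0.774), and no call of a member changed. Without single mice the count was between 2 and 4. Leaving out single mice or changing the filter could not turn the sign of the *Atf3* difference, since the genotypes did not overlap. That difference was positive in all 19 alternatives, from 0.67 (without WT 3) to 1.04 without single mice and up to 1.37 with slide as a block. Only the methods' z-test called it (0.92, adjusted p = 0.03405), where the others gave adjusted p from 0.575 to 0.999.

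Some differences turned sign. With slide as a block, where WT 3 alone carries the comparison, they were 0.22 for *Fos*, 0.0593 for *Fosl2* and 0.0611 for *Egr1*. *Jund* turned to -0.03 without Grsf1cKO 3 and -0.0505 without WT 1, and reached 0.13 without WT 2. Without single mice *Fos* ranged from -1.11 to -0.20.

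The correlation of *Atf3* with *Fos* turned to 0.0216 with normexp background correction and to 0.0034 with first arrays only, and without single mice it ranged from -0.46 to 0.24, with 0.13, 0.08 and 0.01 without Grsf1cKO 1, Grsf1cKO 2 and WT 2. That with *Egr1* ranged from -0.47 to 0.16, with 0.02 and 0.04 without Grsf1cKO 1 and 2, and that with *Jun* from 0.56 to 0.88. *Fosl2* turned to 0.24 without Grsf1cKO 3 (lowest -0.70) and to 0.15 with the mean over probes, and *Jund* to -0.0122 without Grsf1cKO 3 (highest 0.47 without single mice) and to -0.10 with the mean over probes, while the deposited z-scores gave *Jund* 0.70. The r of *Ier3* ranged from -0.56 with the deposited z-scores to -0.05 without WT 3. That of *Fosb* ranged from -0.73 without WT 3 to -0.16 with 75th percentile scaling. The cause of these changes was not tested. *Atf3* stayed above WT without overlap in every setting and *Jun* in every setting but 75th percentile scaling. Leaving out mice cannot make separate groups overlap, and settings that change only the filter or the test keep each mouse's values. For these settings the lack of overlap was fixed in advance. Of all main probes, 3.13% were higher without overlap in the main setting. The share was 6.04% to 8.45% without single mice and 7.58% on slide 2 alone. The setting without the repeat array of Grsf1cKO 1 was chosen after seeing the data, as were the correlations on slide 2 alone. Low signal limits *Fosl1*, which 5 alternatives did not test, and the dimmer *Fosb* and *Fosl2* probes.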
